A study of Mus musculus with 10 samples.

Results

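A set of 10 genes of the actin cytoskeleton that are known targets of serum response factor (SRF) was followed through a change of culture temperature, 10 of the 38087 genes in the deposited tables. They were chosen by name, with earlier results of these data known. They comprise the muscle-type actins Acta1, Acta2 and Actg2, the cytoplasmic actins Actb and Actg1, and the actin-associated proteins Vcl, Zyx, Tpm1, Tagln and Cnn1. All 10 were found in the tables.

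The cells were wild-type NIH3T3, an established line of mouse fibroblasts. They were seeded and kept at 37 °C for 4 h, moved to 38 or 33 °C for 16 h, and then shifted to the other temperature. Total RNA depleted of ribosomal RNA was sequenced at 0, 1, 3, 6 and 9 h after the shift from 38 to 33 °C (the downshift) and from 33 to 38 °C (the upshift), 1 sample per time and course, 10 in all. There was no course without a shift, so time after the shift, time since seeding and the change of temperature cannot be told apart within a course.

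SRF is a transcription factor that binds a short AT-rich element named the CArG box. Its cofactors of the myocardin-related (MRTF) family bind monomeric actin and are held in the cytoplasm by it. When monomers are drawn into filaments, the cofactors enter the nucleus and SRF transcribes genes of the actin cytoskeleton, actins included. A separate set of cofactors, the ternary complex factors, links SRF to immediate early genes such as Egr1.

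RefSeq promoter windows (build GRCm38.p6, from 250 bases before to 50 bases after the start of transcription) were matched for 7 of the 10 genes: Acta1, Acta2, Actg1, Vcl, Zyx, Tpm1 and Cnn1. A CArG box without a mismatch lay in 3 of them, Acta1, Actg1 and Vcl, and in 1.63% of all 32851 promoter windows. Acta2 and Tpm1 held the box with 1 mismatch, and a box with at most 1 mismatch lay in 21.1% of all windows. The box reads the same on both strands. In Acta1 the exact box, CCAAATATGG, began 73 bases before the start, and CCATATACGG and CCTTCTTTGG, each with 1 mismatch, began 205 and 154 bases before it. Acta1 also held TATAAA, searched on both strands, which lay in 13.6% of all windows and overlaps no box. No box with at most 1 mismatch lay in the windows of Zyx and Cnn1.

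The 250 bases before the start are shown for the 4 genes with such a box whose intron reads are described in most detail below, 5′ to 3′ on the strand of the gene, with the boxes in capitals. They are chr19:34255374-34255623 (minus strand) for Acta2, chr11:120348496-120348745 (minus strand) for Actg1, chr14:20929148-20929397 (plus strand) for Vcl and chr9:67049214-67049463 (minus strand) for Tpm1. The boxes begin 84 and 34 bases before the start in Acta2, 90 bases before it in Actg1, 227 in Vcl, and 221 and 80 in Tpm1. A match is a description of the letters and not evidence of binding.
Acta2: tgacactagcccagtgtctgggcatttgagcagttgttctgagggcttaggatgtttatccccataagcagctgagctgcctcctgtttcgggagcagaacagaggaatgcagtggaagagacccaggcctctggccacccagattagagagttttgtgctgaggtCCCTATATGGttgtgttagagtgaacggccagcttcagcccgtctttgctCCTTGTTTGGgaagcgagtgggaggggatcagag
Actg1: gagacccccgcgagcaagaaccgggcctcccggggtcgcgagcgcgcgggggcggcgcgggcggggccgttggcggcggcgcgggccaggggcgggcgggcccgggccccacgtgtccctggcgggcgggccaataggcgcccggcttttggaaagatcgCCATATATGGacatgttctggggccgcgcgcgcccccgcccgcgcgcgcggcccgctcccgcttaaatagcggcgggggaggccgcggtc
Vcl: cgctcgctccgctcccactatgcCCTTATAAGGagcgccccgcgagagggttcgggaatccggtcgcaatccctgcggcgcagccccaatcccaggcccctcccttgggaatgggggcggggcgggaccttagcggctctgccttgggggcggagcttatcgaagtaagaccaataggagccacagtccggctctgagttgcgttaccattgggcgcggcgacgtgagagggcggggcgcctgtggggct
Tpm1: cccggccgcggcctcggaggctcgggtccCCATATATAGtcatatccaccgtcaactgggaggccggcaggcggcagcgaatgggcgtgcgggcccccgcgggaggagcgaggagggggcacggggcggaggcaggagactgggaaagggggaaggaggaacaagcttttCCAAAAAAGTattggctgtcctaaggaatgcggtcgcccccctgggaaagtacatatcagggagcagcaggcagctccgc

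Every sample has 2 columns of exon and 2 of intron reads, in numbered series whose meaning the labels do not give: 5 and 11 in the downshift, 2 and 13 in the upshift. Column totals ran from 22403625 to 48004854 for exons and from 15313374 to 25233405 for introns. The first principal component of the exon columns (45.2% of the variance) separated series 2 and 5 from the other series, and the 2 columns of a sample correlated by 0.927 to 0.966. They were summed to 1 sample, and levels are given for each series. Of 12 fibroblast markers 11 had a mean of at least 1 RPKM, led by S100a4. Their summed level ran from 6056 to 7649 RPKM over the single columns of the downshift and from 7966 to 10070 over those of the upshift, so these ranges include differences between series. Apart from the genes described here, 1 of 8 smooth muscle markers reached that level (Smtn), and Myocd and Kcnmb1 had under 3 reads in all. The summed smooth muscle level was 15.0 to 26.1 RPKM over the columns of the downshift and 14.4 to 25.9 over those of the upshift. None of 8 skeletal muscle markers reached 1 RPKM, 2 of 7 cardiac markers did (Nkx2-5 and Tnnt2), as did 0 of 5 endothelial, 1 of 6 epithelial (Krt14) and 2 of 6 macrophage markers (Cd14 and Lyz2).

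Levels are in RPKM, computed from the counts, so that genes can be compared. Reads were scaled to library size and to the combined length of all annotated exons of a gene, or of its introns. The combined exon length is not that of a single transcript. Over the 20 columns of the 4 complete series, mean exon RPKM was 2585 for Actb, 670.1 for Acta2, 191 for Actg1, 168 for Tagln, 39.2 for Vcl, 33.1 for Tpm1, 30.2 for Actg2, 25.4 for Zyx, 2.19 for Acta1 and 0.0674 for Cnn1. Actb was above the other 9 genes in every column, from 1777 to 4023 RPKM. Acta2, Actg1 and Tagln overlapped in their ranges (123 to 1518, 111 to 313 and 19.6 to 416 RPKM), as did Vcl, Tpm1 and Zyx (23.3 to 72.4, 24.2 to 61.0 and 16.4 to 35.9 RPKM). Actg2 spanned 1.00 to 88.6 RPKM, so its place in the order depends on the series.

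**Figure D1:**
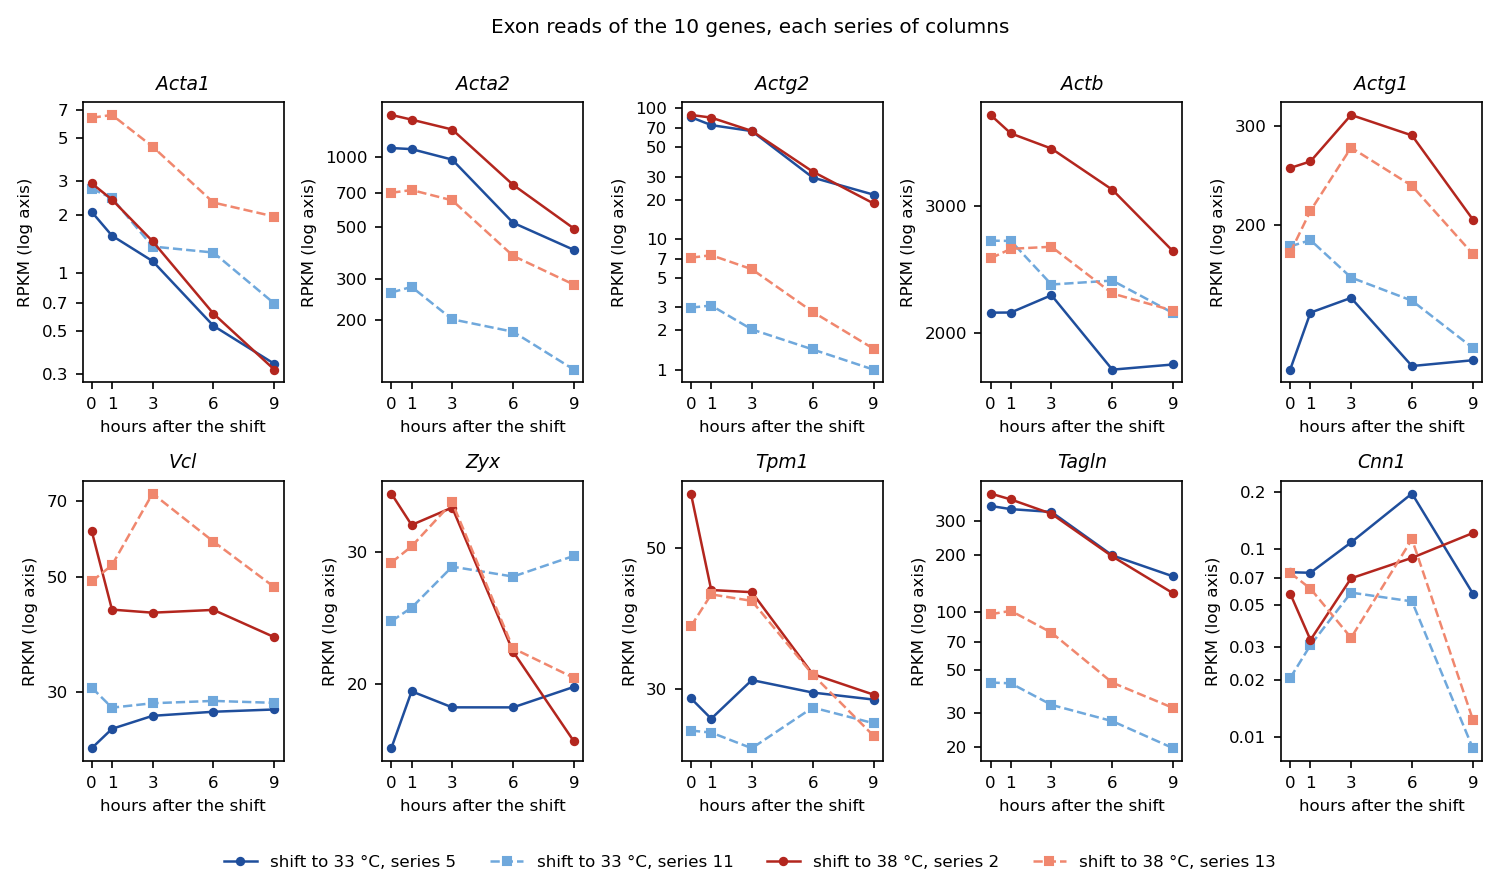
Exon reads (RPKM, log axis) of each of the 10 genes against hours after the shift, 1 line for each series of columns, blue for the shift to 33 °C and red for the shift to 38 °C. Acta1, Acta2, Actg2, Tagln and Actb ended below their start in all 4 lines. Zyx, Tpm1, Vcl and Actg1 ended below it in both red lines, Vcl and Actg1 by little in series 13 (97.5% and 99.5% of the start).

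Acta2 (ENSMUSG00000035783, chr19:34241090-34255590), the smooth muscle alpha-actin that is also made by activated fibroblasts, declined in both courses. In the downshift its exon level was 1095, 1084, 977, 523 and 400.2 RPKM at 0, 1, 3, 6 and 9 h in series 5 and 263, 278, 202, 178 and 123 RPKM in series 11. After the upshift it was 1518, 1449, 1315, 761 and 494 RPKM in series 2 and 704, 723, 653, 378 and 284 RPKM in series 13. The 9 h column was the lowest of every series, at 32.5% to 46.7% of the 0 h column, and the 1 h column at 95.5% to 106% of it. The change fitted on log2(h + 1), taken from 0 to 9 h, was -1.40 ± 0.35 (log2 ± SE) in the downshift and -1.46 ± 0.36 in the upshift. Gene coordinates are those of GENCODE M21 on GRCm38. Both changes of Acta2 passed the edgeR quasi-likelihood test (Benjamini-Hochberg adjusted p = 0.0148 and 0.0121). Every p-value measures scatter about the fitted lines, since no time has a second sample of the same course. In RNA from whole cultures, fewer cells that express a gene and less RNA per cell cannot be told apart.

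Acta1 (ENSMUSG00000031972, chr8:123891769-123894751), the skeletal muscle alpha-actin, was low and declined alike. In the downshift it went from 2.08 RPKM at 0 h through 1.56, 1.15 and 0.532 to 0.338 at 9 h in series 5, and through 2.74, 2.45, 1.37, 1.28 and 0.695 in series 11. After the upshift it went through 2.92, 2.40, 1.46, 0.616 and 0.316 RPKM in series 2 and 6.39, 6.61, 4.53, 2.32 and 1.96 in series 13. Levels at 6 and 9 h lay below those at 0 h in every series. The fitted exon change was -2.04 ± 0.36 in the downshift (adjusted p = 0.00376) and -2.13 ± 0.34 in the upshift (adjusted p = 0.00170, edgeR). Gm20388 lies over Acta1 on the other strand, and whether counting used the strand is not stated in the labels.

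Actg2 (ENSMUSG00000059430, chr6:83512905-83536265), the smooth muscle gamma-actin, differed many-fold between the series of a course and declined in each. Its exon levels at 0, 1, 3, 6 and 9 h of the downshift were 85.2, 74.1, 66.7, 29.5 and 21.8 RPKM in series 5 against 2.99, 3.1, 2.04, 1.43 and 1.00 in series 11. In the upshift they were 88.6, 84.5, 66.8, 32.7 and 18.7 RPKM in series 2 against 7.19, 7.52, 5.88, 2.78 and 1.45 in series 13. The series do not overlap within a course, yet the last column held 20.2% to 33.6% of the first in all 4. The fitted exon change was -1.96 ± 0.46 in the downshift (adjusted p = 0.0110) and -2.16 ± 0.47 in the upshift (adjusted p = 0.00705, edgeR).

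Tagln (ENSMUSG00000032085, chr9:45929619-45936058), the smooth muscle actin-binding protein transgelin (SM22), followed the same course. It stood at 359, 345, 334, 198 and 154 RPKM in series 5 and 43.2, 42.8, 33.0, 27.2 and 19.6 in series 11 of the downshift. After the upshift it stood at 416, 388, 327, 196 and 126 RPKM in series 2 and 97.9, 102, 78.5, 43.1 and 31.8 in series 13. All series were lowest at 9 h, at 30.2% to 45.5% of their start. The fitted exon change was -1.19 ± 0.32 in the downshift (adjusted p = 0.0201) and -1.65 ± 0.33 in the upshift (adjusted p = 0.00465, edgeR). Pcsk7 and Gm48529 overlap Tagln on the other strand.

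Cnn1 (ENSMUSG00000001349, chr9:22099216-22109630), the smooth muscle calponin that binds actin and tropomyosin, was near the limit of detection, with 138 exon reads over the 20 columns and at most 0.196 RPKM. It failed the minimum of 1 RPKM for a test. With that minimum lowered to 10 reads its fitted exon change was 0.66 ± 0.72 in the downshift and 0.50 ± 0.68 in the upshift, and neither was called. At this depth no change of Cnn1 was detectable.

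The cytoplasmic actins make up the filaments of non-muscle cells, and beta-actin (Actb) is the more abundant of the pair here. Actb (ENSMUSG00000029580, chr5:142903115-142906754) exons were at 2134, 2135, 2257, 1777 and 1807 RPKM in series 5 and 2688, 2686, 2335, 2365 and 2130.1 in series 11 of the downshift. In the upshift they were at 4023, 3791, 3611, 3165 and 2596 RPKM in series 2 and 2540, 2618, 2636, 2269 and 2147 in series 13. The 9 h columns held 64.5% to 84.7% of the start, a smaller decline than that of the muscle-type actins. The fitted change was -0.30 ± 0.10 in the downshift (adjusted p = 0.0357) and -0.43 ± 0.10 in the upshift (adjusted p = 0.00811, edgeR).

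Actg1 (ENSMUSG00000062825, chr11:120345690-120348542), gamma-actin, had no called exon change in either course. Its levels were 111, 140.4, 149, 113 and 116 RPKM in series 5 and 184, 188, 162, 147 and 122 in series 11 of the downshift, which move in different ways. In the upshift they were 253, 259, 313, 288 and 205 RPKM in series 2 and 179, 212, 274, 235 and 178 in series 13, highest at 3 h in both. The fitted change was -0.33 ± 0.23 (adjusted p = 0.287) and 0.03 ± 0.23 (adjusted p = 0.936, edgeR). Actb and Actg1 resemble each other and their processed copies, and the labels do not say how reads shared between copies were assigned. The microRNA Mir6935 and Gm23419 lie within Actg1 on its own strand.

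The remaining genes encode parts of filaments and of the adhesions that anchor them. Tpm1 (ENSMUSG00000032366, chr9:67022590-67049406), a tropomyosin that lies along the filament, was in exon level at 29.0, 26.9, 31.0, 29.6 and 28.9 RPKM in series 5 of the downshift and 25.8, 25.6, 24.2, 28.1 and 26.5 in series 11. In the upshift it went through 61.0, 43.0, 42.7, 31.7 and 29.4 RPKM in series 2 and 37.7, 42.3, 41.3, 31.6 and 25.3 in series 13. The series of the upshift began above every downshift column and ended among them. The fitted change was 0.06 ± 0.11 in the downshift (adjusted p = 0.707) and -0.77 ± 0.12 in the upshift (adjusted p = 0.00134, edgeR).

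Zyx (ENSMUSG00000029860, chr6:42349630-42360213), the adhesion protein zyxin that is recruited to actin fibres under tension, also separated the courses. In the downshift it stood at 16.4, 19.6, 18.6, 18.6 and 19.8 RPKM in series 5 and 24.3, 25.3, 28.7, 27.8 and 29.6 in series 11. After the upshift it stood at 35.9, 32.6, 34.4, 22.1 and 16.8 RPKM in series 2 and 29.0, 30.5, 34.9, 22.3 and 20.4 in series 13, with the step down between 3 and 6 h in both. The fitted change was 0.24 ± 0.21 in the downshift (adjusted p = 0.394) and -0.76 ± 0.22 in the upshift (adjusted p = 0.0234, edgeR). Epha1 and Gm44284 overlap Zyx on the other strand.

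Vcl (ENSMUSG00000021823, chr14:20929398-21033676) encodes vinculin, which couples integrin adhesions to actin. Its exon level in the downshift was 23.3, 25.4, 26.9, 27.4 and 27.7 RPKM in series 5 and 30.5, 27.9, 28.5, 28.8 and 28.5 in series 11. In the upshift it was 61.3, 43.2, 42.6, 43.1 and 38.2 RPKM in series 2 but 49.0, 52.6, 72.4, 58.4 and 47.7 in series 13, so the series of the upshift went against each other. The fitted change was 0.09 ± 0.13 in the downshift (adjusted p = 0.630) and -0.17 ± 0.13 in the upshift (adjusted p = 0.343, edgeR). Within series 2 and 5 the upshift change of Vcl was -0.54 (adjusted p = 0.00926), and within series 11 and 13 it was 0.14 (adjusted p = 0.666). Ap3m1 overlaps Vcl on the other strand.

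Of the 9 tested genes, 5 fell in exon level in the downshift and 0 rose, where 15.9% of the 10173 tested genes fell and 16.3% rose. In the upshift 7 fell and 0 rose, against 18.6% and 14.5% of tested genes. The genes that fell in both courses were Acta1, Acta2, Actg2, Actb and Tagln, and 0.511% of all tested genes fell in both. The median fitted change over the 9 was -0.33 in the downshift and -0.77 in the upshift, and over all tested genes it was 0.01 and -0.02. For the mean of both changes 6 of the 9 fell (those 5 and Tpm1) and 0 rose, where 2.06% of tested genes fell and 1.2% rose. These shares describe the 9 genes that passed the minimum, not all 10, and the set was chosen with earlier results of these data known. Of the 12 fibroblast markers, 7 also fell in the upshift (Col1a1, Col3a1, Col5a1, Dcn, Pdgfra, Thy1 and Vim, from -0.71 for Col5a1 to -0.22 for Vim), and in the downshift 2 fell (Col1a1 at -0.29 and Col5a1 at -0.40) and 3 rose (Vim, S100a4 and Pdgfrb). Of the cardiac markers Tnnt2 fell in the upshift (-1.24 ± 0.29). The part of these markers in the results was not tested.

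The downshift minus upshift difference in exon change was called for 2 of the 9, both upward, and for 0 downward, where 25.2% of tested genes were called upward and 21.7% downward. It was 1.00 ± 0.30 for Zyx (adjusted p = 0.0203) and 0.83 ± 0.16 for Tpm1 (adjusted p = 0.00249, edgeR). For Acta1, Acta2, Actg2, Actb and Tagln, the genes that fell in both courses, it ran from 0.06 to 0.46 and was not called. With the time point as a replicate block, which pairs samples across courses by hour, Tagln was called as well, at 0.46 (adjusted p = 0.0152).

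Acta1 was called in both courses whichever sample was left out (edgeR adjusted p at most 0.0287 and 0.0126), as were Tpm1, Tagln and Actg2 in the upshift (at most 0.00908, 0.0333 and 0.0469). The downshift minus upshift difference of Tpm1 was also called each time (0.68 to 1.01, adjusted p at most 0.0144). Other exon calls of a course or of the difference depended on single samples. Without the 9 h sample of the downshift, the change was -1.03 for Acta2 (adjusted p = 0.122), -1.54 for Actg2 (adjusted p = 0.0920) and -0.85 for Tagln (adjusted p = 0.156), and 1 of the 9 genes was called, Acta1. That fit called 1651 of all tested genes (16.2%) in the downshift, where the full fit called 3276 (32.2%). Without the 6 h sample of the downshift 2 of the 9 were called, with 1939 of all tested genes (19.1%). There Acta2 (-1.37, adjusted p = 0.0531) and Tagln (-1.16, adjusted p = 0.0670) were not called, with changes about as large as before. Actb was not called in the downshift without its 0, 1, 6 or 9 h sample (changes from -0.45 to -0.24, adjusted p from 0.0508 to 0.192). Nor was its downshift change called within series 2 and 5 (-0.29, edgeR adjusted p = 0.157) or within series 11 and 13 (-0.32, adjusted p = 0.0604). Without the 9 h sample of the upshift 4 of the 9 were called, and 2709 of all tested genes (26.6%), where the full fit called 3363 (33.1%). There Acta2 (-1.01, adjusted p = 0.0852), Actb (-0.28, adjusted p = 0.0638) and Zyx (-0.45, adjusted p = 0.173) were not called. Zyx was also not called in the upshift without the 1 h (-0.74, adjusted p = 0.0528) or 6 h sample (-0.70, adjusted p = 0.0783), with changes about as large as before. Its difference between courses was not called without the 0 h (0.90, adjusted p = 0.104) or 9 h (1.00, adjusted p = 0.0517) sample of the downshift, nor without the 6 h (0.93, adjusted p = 0.0510) or 9 h (0.68, adjusted p = 0.0808) sample of the upshift. Within series 11 and 13 alone the upshift change was -0.54 for Tpm1 (adjusted p = 0.0651), -0.49 for Zyx (adjusted p = 0.112) and -0.23 for Actb (adjusted p = 0.168), and neither difference was called (0.62 for Tpm1, adjusted p = 0.0852, and 0.78 for Zyx, adjusted p = 0.0531). A step from 0 h to the mean of 3, 6 and 9 h called 0 of the 9 in either course, and 345 and 588 of all tested genes where the line called 3276 and 3363. The step was -1.41 and -1.28 for Acta1 and -1.11 and -1.16 for Actg2.

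**Figure D2:**
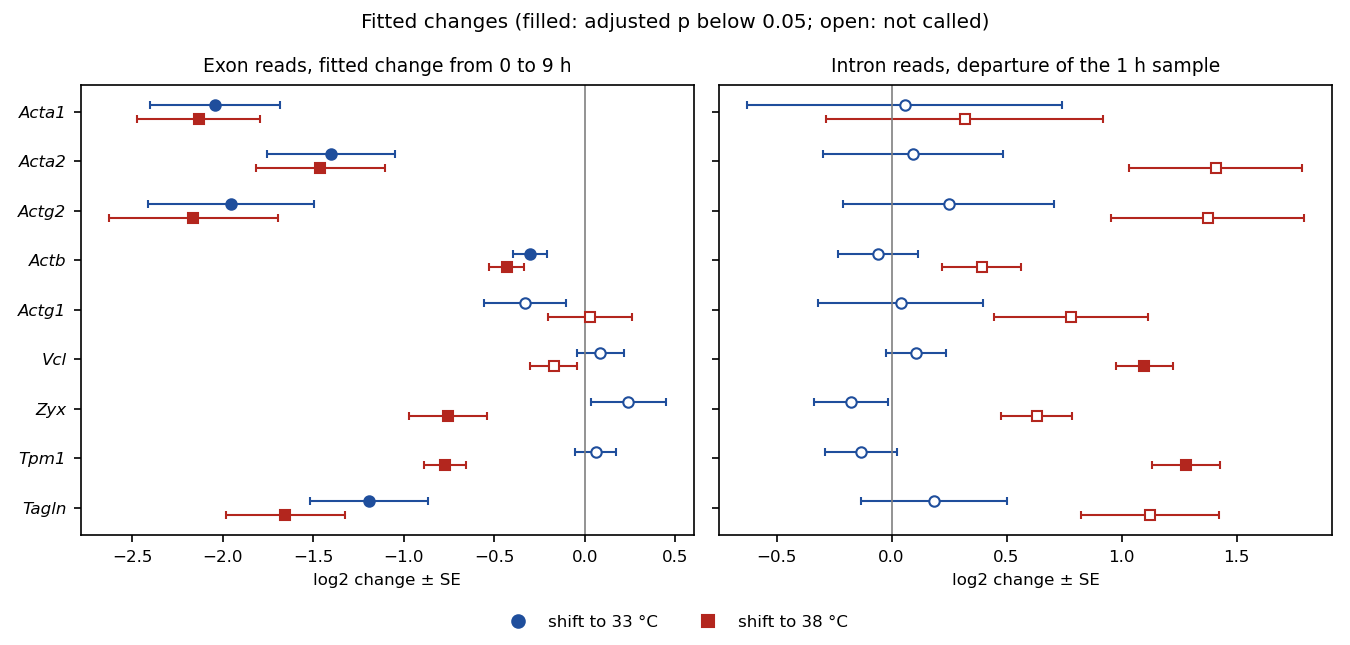
Fitted changes (log2 ± SE) of the 9 tested genes, blue circles for the shift to 33 °C and red squares for the shift to 38 °C, filled where the adjusted p was below 0.05. Left, exon reads from 0 to 9 h: Acta1, Acta2, Actg2, Actb and Tagln are filled in both colours. Right, the departure of the intron reads at 1 h from the line through the other times: Vcl and Tpm1 are filled in red.

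Intron reads come largely from transcripts not yet spliced and follow transcription more closely than exon reads, although splicing and the decay of introns move them as well. Fitted as a line from 0 to 9 h, the intron change was called for 0 of the 9 genes in the downshift, where 4.27% of 9352 tested genes were called, and for 0 of the 9 in the upshift, where 4.53% were. At an unadjusted p below 0.05 there were 2337 and 2307 such genes among all tested. The lowest adjusted p in the upshift was that of Tagln (-2.18 ± 0.55, adjusted p = 0.0524, edgeR). Leaving out the 0 h sample of the upshift called 8 of the 9 there and 3 of the 9 in the downshift, with 462 and 1004 of all tested genes, where the full fit called 424 and 399.

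**Figure D3:**
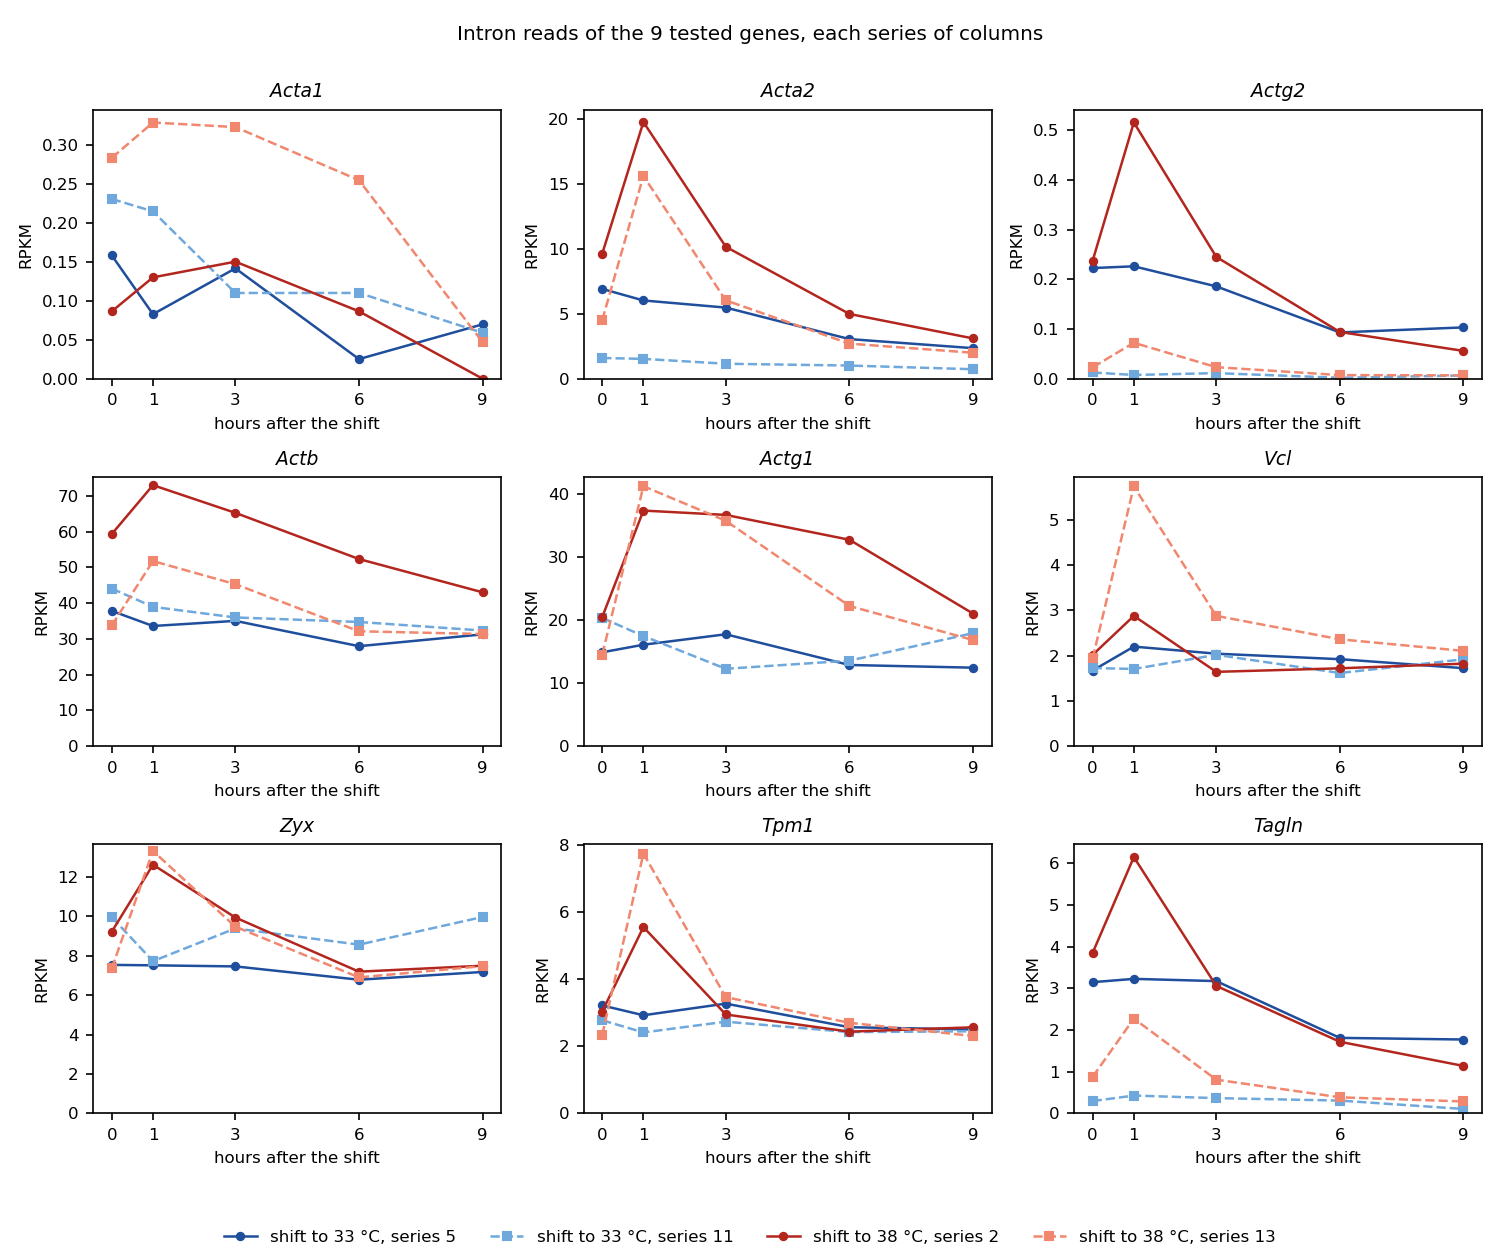
Intron reads (RPKM, linear axis from 0) of the 9 tested genes against hours after the shift, 1 line for each series, blue for the shift to 33 °C and red for the shift to 38 °C. In both red lines the highest point is at 1 h for each gene except Acta1.

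The line misses the course of the intron levels after the upshift, which in 8 of the 9 genes were highest at 1 h and lower by 3 h in both series. Acta1, highest at 3 h in series 2, was the exception. Acta2 introns were at 9.62, 19.8, 10.2, 4.99 and 3.1 RPKM at 0, 1, 3, 6 and 9 h in series 2 and 4.50, 15.6, 6.03, 2.70 and 2.0 in series 13. In the downshift they were at 6.92, 6.03, 5.48, 3.05 and 2.35 RPKM in series 5 and 1.59, 1.53, 1.15, 1.01 and 0.728 in series 11. The 1 h sample of the upshift was thus 2.05- and 3.46-fold above 0 h, while that of the downshift was 0.87- and 0.96-fold of it, on the log2 scale with 0.01 RPKM added.

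Tpm1 introns in the upshift were at 3.04, 5.55, 2.95, 2.44 and 2.57 RPKM in series 2 and 2.34, 7.74, 3.47, 2.70 and 2.31 in series 13. In the downshift they stayed between 2.41 and 3.27 RPKM in both series. Vcl introns in the upshift were at 2.01, 2.87, 1.64, 1.72 and 1.82 RPKM in series 2 and 1.94, 5.73, 2.88, 2.36 and 2.10 in series 13. In both genes the 1 h column was above all others of its series, and by more in series 13 than in series 2. The downshift range of Vcl was 1.61 to 2.20 RPKM.

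Tagln introns went through 3.85, 6.15, 3.06, 1.72 and 1.14 RPKM in series 2 and 0.879, 2.28, 0.811, 0.388 and 0.288 in series 13. Actg2 introns went through 0.238, 0.516, 0.245, 0.0940 and 0.0559 RPKM in series 2 and 0.0229, 0.0723, 0.0232, 0.00721 and 0.00673 in series 13, the latter from at most 65.1 reads a column. In both genes the level was near or below its start at 3 h and lower at 6 and 9 h, like the exon level. In Acta1 the intron reads were too few to follow, with at most 19.7 in any of the 20 columns.

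Zyx introns in the upshift were at 9.23, 12.6, 9.95, 7.20 and 7.50 RPKM in series 2 and 7.36, 13.3, 9.48, 6.91 and 7.48 in series 13. Actb introns were at 59.3, 73.0, 65.2, 52.3 and 43.0 RPKM in series 2 and 33.7, 51.7, 45.3, 32.1 and 31.3 in series 13. Actg1 introns were at 20.5, 37.4, 36.7, 32.8 and 21.1 RPKM in series 2 and 14.5, 41.3, 35.8, 22.3 and 16.9 in series 13. The 3 h level was 0.98- and 0.87-fold that at 1 h for Actg1 and 0.89- and 0.88-fold for Actb, against 0.79- and 0.71-fold for Zyx. The introns of Actg1 span 195 bases, and 75 to 333 intron reads of Actg1 were counted in a column.

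**Figure D4:**
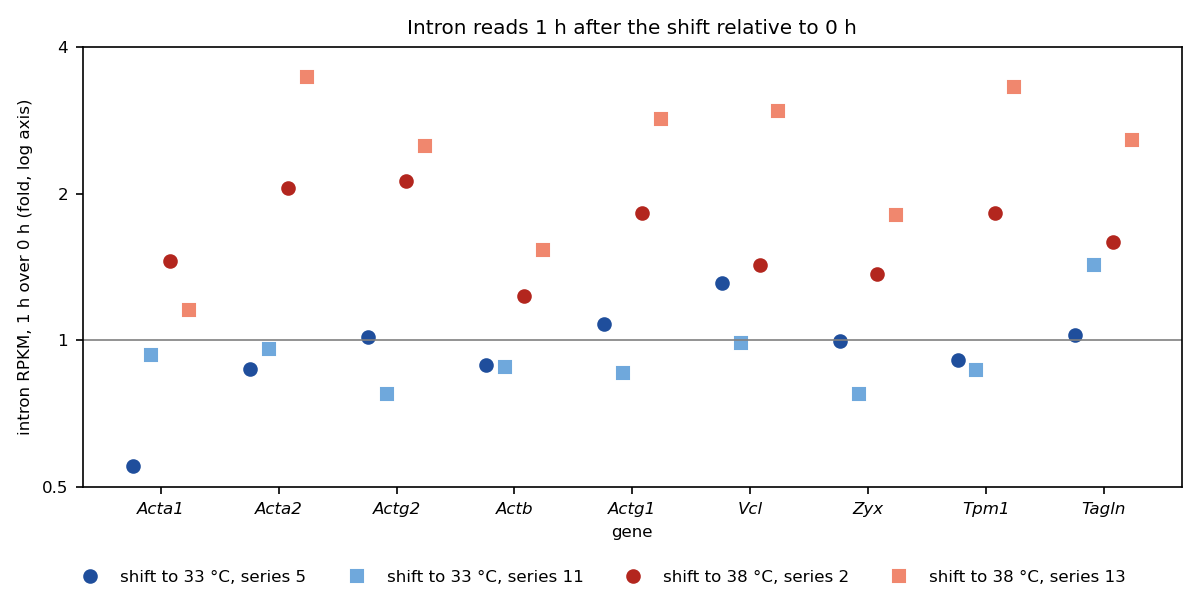
Intron RPKM at 1 h over 0 h (fold, log axis, 0.01 RPKM added) of the 9 tested genes in each series, blue for the shift to 33 °C and red for the shift to 38 °C. All red points lie above 1, up to 3.46 for Acta2, and the blue points lie on both sides of 1.

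Between 0 and 1 h of the upshift all 9 tested genes were higher in intron level in both series, as were 3604 of the 9352 tested genes. Acta2 and Actg2 were at least 2-fold higher in both, 2 of 9, where 0.631% of tested genes were. The median log2 change over the 9 was 1.04, and over all tested genes 0.03. In the downshift 0 of the 9 were at least 2-fold higher or lower in both series, where 0.267% of tested genes were higher and 0.192% lower. With 1 sample a time these folds have no replicate check.

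A departure of the 1 h sample from the line through the other 4 times was then fitted for each course, a test chosen after these values were seen. In the introns of the upshift it was called upward for 2 of the 9 genes, where 1.14% of tested genes were called upward: Vcl at 1.1 ± 0.13 and Tpm1 at 1.28 ± 0.15 (log2 ± SE, adjusted p = 0.00510 for both, edgeR). The departure was 1.41 ± 0.38 for Acta2 (adjusted p = 0.105), 1.37 ± 0.42 for Actg2 (adjusted p = 0.151) and 1.12 ± 0.30 for Tagln (adjusted p = 0.102), larger or as large but with wider errors. It was 0.78 ± 0.34 for Actg1, 0.63 ± 0.16 for Zyx, 0.39 ± 0.17 for Actb and 0.32 ± 0.60 for Acta1, none of them called. Within series 11 and 13 alone 6 of the 9 and 205 of all tested genes were called, in either direction, against 140 of all in the full fit, among the 6 Acta2 (1.76, adjusted p = 0.00189), Actg2 (1.90, adjusted p = 0.0107), Tagln (1.60, adjusted p = 0.00550) and Zyx (0.77, adjusted p = 0.0245). Within series 2 and 5 none of the 9 and 4 of all tested genes were called, with Vcl at 0.64 (adjusted p = 0.266) and Tpm1 at 0.95 (adjusted p = 0.0674).

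After the downshift the departure of the introns ran from -0.18 to 0.25 over the 9 genes, and edgeR called 0 of the 9 and 0 of all tested genes, with 920 of the latter at an unadjusted p below 0.05. Exon reads departed at 1 h in 0 of the 9 genes in either course. Among all tested genes 0 were called on exons by edgeR, with 316 at an unadjusted p below 0.05 in the upshift and 97 in the downshift. The exon departures of the 9 in the upshift ran from -0.17 to 0.41.

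The exon-to-intron ratio, taken as exon RPKM over intron RPKM, was lowest at the same hour in several of the genes. For Acta2 in the upshift it was 158, 73.3, 129, 153 and 159 in series 2 and 156, 46.3, 108, 139.9 and 142 in series 13. For Tpm1 it was 20.1, 7.74, 14.5, 13 and 11.4 in series 2 and 16.1, 5.47, 11.9, 11.7 and 11 in series 13. The 1 h value was the lowest of each of these 4 series, and unlike that of Acta2 the ratio of Tpm1 did not return to its start. In the downshift the ratio of Acta2 stayed between 158 and 182. As a line from 0 to 9 h the ratio was called for 0 of the 9 genes in the downshift, where 3.25% of tested genes were called, and for 0 in the upshift, where 5.19% were.

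At 0 h, after 16 h at each temperature, exon levels at 33 °C were compared with those at 38 °C within the series pairs 2 over 5 and 13 over 11. The pairs are separate series, and the labels do not say whether their columns are separate cultures. For Vcl the 33 °C level was 2.62- and 1.60-fold that at 38 °C, for Tpm1 2.10- and 1.46-fold, and for Zyx 2.18- and 1.2-fold. For Acta2 it was 1.39- and 2.68-fold, for Acta1 1.39- and 2.29-fold, for Tagln 1.16- and 2.26-fold and for Actg2 1.04- and 2.36-fold. These 7 genes were higher at 33 °C in both pairs, while Actb (1.89- and 0.94-fold) and Actg1 (2.27- and 0.97-fold) differed in direction between them. Over all tested genes the median log2 change was 0.05 for 2 over 5 and -0.03 for 13 over 11. How many of them were higher in both pairs was not counted. None of the 9 was at least 2-fold higher in both pairs, where 1.49% of tested genes were.

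The 9 h samples can be set against cells held for 16 h at the same temperature, which are the 0 h samples of the other course. At 33 °C the 9 h exon level was 0.26- and 0.17-fold that of 16 h for Acta2, 0.15- and 0.12-fold for Acta1, 0.25- and 0.15-fold for Actg2 and 0.37- and 0.20-fold for Tagln. These 4 of the 9 were at least 2-fold lower in both pairs, as were 0.875% of tested genes. At 38 °C it was 0.45- and 1.08-fold for Acta2, 0.19- and 0.73-fold for Acta1, 0.22- and 0.50-fold for Actg2 and 0.35- and 0.74-fold for Tagln, and 0 of the 9 were at least 2-fold lower in both pairs, where 0.177% of tested genes were. Vcl was 1.64- and 1.56-fold higher at 9 h than at 16 h of 38 °C. The samples set against each other also differ in series and in time since seeding.

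Other actin cytoskeleton genes known as SRF and MRTF targets were read from a list of 35, of which 30 were tested. This list and those below were also chosen with earlier results of these data known. In exon level 3 rose and 3 fell in the downshift, and 2 rose and 13 fell in the upshift, with medians of -0.07 and -0.28. Among all tested genes 16.3% rose and 15.9% fell in the downshift, and 14.5% rose and 18.6% fell in the upshift. Myl9, a regulatory light chain of myosin, fell in both courses (-1.41 ± 0.43, adjusted p = 0.0318, and -1.62 ± 0.42, adjusted p = 0.0157, edgeR). Pdlim7, a PDZ and LIM protein of actin fibres, rose in the downshift (0.39 ± 0.11) and fell in the upshift (-0.94 ± 0.11), and the smoothelin gene Smtn did the opposite (-0.63 ± 0.13 and 0.52 ± 0.12). Tpm2 (-0.86 ± 0.17) and Fhl2 (-0.89 ± 0.18) fell in the upshift and were at -0.06 ± 0.17 and -0.09 ± 0.18 in the downshift, not called. Cnn2, a calponin of non-muscle cells, was at -0.49 ± 0.18 and -0.48 ± 0.19 and was not called in either.

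In the introns of that list, 9 of 30 departed upward at 1 h of the upshift and 0 downward: Myl9 at 2.16 ± 0.32, Cnn2 at 1.07 ± 0.13, Lima1 at 0.98 ± 0.11, Wdr1 at 0.80 ± 0.15, Pdlim5 and Cald1 at 0.76 each, Csrp1 at 0.70 ± 0.15, Fhl2 at 0.66 ± 0.12 and Filip1l at 0.65 ± 0.12. Among all tested genes 1.14% departed upward, and within series 2 and 5 alone 4 were called in either direction. Lima1, Wdr1, Pdlim5, Cald1 and Csrp1 are named after their values were seen. In intron level 24 of the 30 were higher at 1 h than at 0 h in both series of the upshift, with a median log2 change of 0.42. Of the 9352 tested genes 3604 were higher in both, with a median of 0.03 over all.

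SRF and genes that act with it were read one by one. Srf, whose own gene is a known SRF target, had 2.56- and 2.68-fold more intron reads at 1 h than at 0 h of the upshift, and a departure of 1.16 ± 0.23 (adjusted p = 0.0395, edgeR). Its exon change was -0.30 ± 0.31 in the downshift and -0.0037 ± 0.34 in the upshift, not called. Of the MRTF genes, Mkl1 was not called in either course, and Mkl2 rose in the downshift (0.52 ± 0.16) and was at -0.11 ± 0.15 in the upshift, not called. Scai, a repressor of MRTF activity, rose in the downshift (0.69 ± 0.20). In the upshift Mical2, an actin oxidase, fell (-0.52 ± 0.15), as did the formin gene Diap2 (-0.86 ± 0.14), while Grlf1 rose (0.49 ± 0.08). Limk1, a kinase of cofilin, rose in the downshift (0.40 ± 0.11) and fell in the upshift (-0.38 ± 0.11).

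Immediate early SRF targets were a list of 12, with 8 tested on exons and 5 on introns. In exon level 0 rose or fell in the downshift, where 16.3% of all tested genes rose and 15.9% fell. In the upshift 0 rose and 2 fell, among them Ier3 (-0.96 ± 0.13), where 14.5% of all tested genes rose and 18.6% fell. Egr1 introns were 3.41- and 3.48-fold higher at 1 h than at 0 h of the upshift, with a departure of 2.30 ± 0.56 that was not called (adjusted p = 0.0731, edgeR). The departure was called for 0 of the 5, where 1.14% of all tested genes were called upward. Intron levels of Nr4a1 were 0.74- and 0.50-fold those at 0 h, of Egr2 0.82- and 3.08-fold and of Ier3 1.15- and 0.79-fold. In both series 2 of the 5 were higher at 1 h, as were 3604 of the 9352 tested genes.

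Across the 10 samples, exon levels of the 9 genes were also compared with those of all other tested genes, as a description. The samples share the course and the time, so high correlations are common. The gene outside the set closest to Acta1, Actg2 and Tagln was Heatr5a in each case (Pearson r = 0.966, 0.987 and 0.992). It was Timp1 for Acta2 (0.979), Myl9 for Actb (0.993), Gm12715 for Actg1 (0.986), Notch2 for Vcl (0.987), Hsd17b10 for Zyx (0.972) and Retsat for Tpm1 (0.988). Within the set, Actg2 and Tagln were the closest pair (0.993), Zyx and Tpm1 were each closest to the other (0.902), as were Vcl and Actg1 (0.905), and Actg2 and Vcl were the farthest apart (0.414).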

How the data were processed

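Libraries were paired-end and strand-specific, from total RNA depleted of ribosomal RNA, per the labels' protocols. The submitters' processing notes name STAR, bedtools and the build mm10; tool versions, the annotation and the counting rules are not given in sources used here. Estimated counts of exon and intron reads make up the deposited tables, although their names speak of RPKM: 22.9% of exon values above 0 were whole (tolerance 1e-06), and no column lacked a sample. The fits used these expected counts as deposited by the authors, rounded.

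The columns of a sample in its 2 complete series were summed, and an offset for each gene took account of the mix of series. Series 10, which covers 1 and 3 h of the downshift, entered an alternative. edgeR 4.0.16 (R 4.3.3) quasi-likelihood fits with TMM scaling, which introns took from the exon columns, gave each course its own intercept and its own slope against log2(h + 1), over all 10 samples together. Slopes were multiplied by the log2 of 10 to give the change between 0 and 9 h, whose SE is its size divided by the root of the F statistic. Tested genes had an exon RPKM averaging at least 1 (10173) and, for introns and the ratio, a mean intron RPKM of at least 0.05 (9352), with Benjamini-Hochberg adjustment over all of them and calls at 0.05. RPKM used GENCODE M21 lengths (36308 of 38087 genes matched, 95.3%). Folds without a test used log2 RPKM with 0.1 (exons) or 0.01 (introns) added. The fits were tested on simulated data.

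The members and lists were chosen with earlier results of these data known. Named genes are all members, up to 4 tested genes of each list with the largest exon change in each course, the genes that define a list, and for each member the closest other gene by Pearson correlation. The counts of 1 list and some of its genes are not reported here. Alternatives were other scaling (DESeq2 size factors, library totals), DESeq2 1.42.0, limma 3.58.1 on log2 RPKM with 2 pseudocounts, other minimums (10 reads, or 5 RPKM), linear hours, a step, each pair of series alone, series 10 added, no offset, the time point as a replicate block, and each sample left out. The block pairs samples by hour only, since all replicate numbers are 1.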

Additional observations from a re-analysis of the deposited data

Results flagged for a closer look

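The exon change of Zyx after the downshift exceeded that after the upshift by 1.00 (log2, edgeR adjusted p = 0.0203), and that of Tpm1 by 0.83 (adjusted p = 0.00249). In each the test of the difference between the courses passed the threshold, as it did in this direction for 25.2% of tested genes. The Zyx call was lost without the 0 or 9 h sample of the downshift or the 6 or 9 h sample of the upshift. The step comparison called neither difference. Both genes fell in the upshift and were not called in the downshift. Within series 11 and 13 alone the differences were 0.78 (adjusted p = 0.0531) and 0.62 (adjusted p = 0.0852).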

How the results depend on the processing

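Of the 550 tested values of single genes under the alternatives, 489 kept their direction and their side of the threshold, 41 lost their call, 8 gained one and 12 changed sign, none of the last from a called value. Of 144 folds without a test, 19 changed sign, each in the value of a single series or pair of series. The cause of each change below was not tested.

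The step comparison called 345, 588, 2514 and 0 genes on exons (downshift, upshift, difference, mean), and 0 members in each. Within series 11 and 13 these counts were 2004 and 2170 for the courses and 41 for the mean, with 4 members in the upshift and 0 for the difference. For the mean DESeq2 called 866 genes, linear hours 668 and series 2 and 5 alone 723. The intron downshift gave 1107 genes by DESeq2, 124 and 191 by limma (small and large pseudocount), 627 with at least 10 reads, 34 with linear hours, 1078 by the step, 626 in series 2 and 5 alone and 6 in series 11 and 13. The intron upshift gave 1142 with library totals, 1155 by DESeq2, 660 with 10 reads, 239 at 5 RPKM, 219 with linear hours, 777 by the step and 87 within series 11 and 13. Its members called were 3 by DESeq2 and with linear hours, and 1 with library totals, 10 reads, series 2 and 5 alone or series 10 added. The ratio in the downshift gave 733 genes by DESeq2, 122 and 1098 by limma, 189 with 10 reads, 99 with linear hours, 74 by the step, 108 in series 2 and 5 alone and 9 in series 11 and 13. In the upshift it gave 881 by DESeq2, 1365 by limma with the large pseudocount, 161 with linear hours, 77 by the step, 32 in series 2 and 5 alone and 123 in series 11 and 13. That limma fit called 2 members in each course. The intron departure at 1 h was called for 4 genes and 0 members within series 2 and 5, and for 6 members within series 11 and 13. On exons it was called for 3 genes within series 11 and 13.

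Leaving out each sample in turn gave 1551 to 3539 genes and 1 to 5 members for the exon downshift, 1870.0 to 3462 and 4 to 7 for the upshift, 3638 to 4886 and 1 to 2 for the difference and 78 to 519 and 1 to 6 for the mean. It gave 0 to 1004 genes and 0 to 3 members for the intron downshift, 8 to 838 and 0 to 8 for the intron upshift, 34 to 452 and 0 to 0 for the ratio in the downshift and 50 to 617 and 0 to 0 in the upshift.

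Signs changed for Vcl within series 11 and 13 (-0.060 in the downshift, 0.14 in the upshift, -0.20 for the difference) and for Actg1 in the upshift with linear hours (-0.15) and in the upshift and difference within series 2 and 5 (-0.073 and 0.0079). Leaving out a sample took the upshift change of Actg1 from -0.34 to 0.44, its difference from -0.78 to 0.014, the upshift change of Vcl from -0.23 to 0.034 and the difference of Tagln from -0.11 to 1.15. With the time point as a replicate block, Tagln's difference was called (0.46, adjusted p = 0.0152), as were 4126 genes, and no other call among the members changed. With 1 added in place of 0.1, the 9 h over 16 h exon change of Acta1 at 33 °C was -1.84.

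Depth limits Cnn1 and the introns of Acta1 and, in series 11 and 13, of Actg2. With 1 sample per time, temperature and time cannot be told apart within a course.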
